A study of Mus musculus with 8 samples.

Results

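The olfactory receptor genes of mouse chromosome 9 were described as a gene family that cortical neurons are not known to use, in peak lists of open chromatin. Members were the protein-coding genes of RefSeq on GRCm38 that lie on chromosome 9 and whose symbol starts with Olfr. There were 130 of them among 21887 protein-coding genes. The assay was ATAC-seq, which uses a transposase (Tn5) to place sequencing adapters where chromatin is open, on primary cortical neurons of E16.5 mouse embryos. The groups were wild-type neurons, labelled Brg1 WT, and neurons labelled Brg1-cko (cKO below) with the genotype BAF53bCre Brg1F/F. In the latter, Cre expressed from the neuronal gene BAF53b removes the floxed Brg1 gene, so cells that do not express BAF53b keep it. Whether the wild-type cultures carried Cre or floxed alleles is not given in the sources used here. Each genotype was taken without KCl (basal) and after 50 mM KCl for 1 h on day 6 in culture, which depolarises neurons. TTX at 1 µM and APV at 100 µM, given on day 5 to silence spontaneous activity, are described for depolarisation, and the labels do not say whether basal cultures received them.

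Each condition had 2 libraries and 1 deposited list of nucleosome-free peaks. Every value below therefore stands for 1 list, without replicate error, and no test compares the conditions. The WT basal list held 34061 peaks, WT KCl 20229, cKO basal 20484 and cKO KCl 25690, and the background level recovered from the peaks was 8.23 to 9.47 fragments. A gene-end peak below is one within 1 kb of either end of a gene model, and a fold is the authors' ratio of fragments to the local background at a peak's summit. Smarca4, the symbol of Brg1, had a gene-end peak in each of the 4 lists (folds 4.89 to 5.62), and whether that site lies in the deleted segment is not known here. Of 7 pan-neuronal marker genes, 5 and 3 had a gene-end peak in the WT lists (basal, then KCl) and 4 and 4 in the cKO lists, and of 4 microglia genes none did. Of 4 astrocyte genes, WT basal had one at 3 and the other lists at 0, and of 4 oligodendrocyte lineage genes, 3, 2, 3 and 2 did. The part of other cells in the members' counts was not tested. Of 7 markers of olfactory sensory neurons, the cells in which the family works, 2, 2, 1 and 3 did. Omp, Cnga2, Gng13 and Stoml3, which are markers of mature sensory neurons, had none in any list. Of the other markers, Gnal had one in all 4 lists, Ano2 in all but cKO basal and Adcy3 in cKO KCl alone.

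Olfactory receptors are G protein-coupled receptors of the nasal epithelium that bind odorants. Each sensory neuron expresses 1 receptor allele out of the whole family, and the other members lie in compact heterochromatin, from which the demethylase Kdm1a and the factors Lhx2, Ebf and Ldb1 help to release the chosen gene. Signals pass through the G protein subunit Gnal and the cyclase Adcy3 to the channel Cnga2. The coding sequence of a receptor gene is a single exon, often spliced to short upstream exons, and many annotated models hold the coding exon only.

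The members formed 2 clusters, with runs split where neighbouring starts lay 500 kb or more apart. Cluster 1 ran over 1.58 Mb from Olfr24 to Olfr18 (chromosome 9, 18754692 to 20336094) and held 35 members. Cluster 2 ran over 2.48 Mb from Olfr160 to Olfr986 (37711348 to 40188094) and held 95. Between the members lay 48 further Olfr entries that are not annotated as coding, 16 in cluster 1 and 32 in cluster 2. They also enclosed 4 other coding genes, the zinc finger gene Zfp317 in cluster 1 and Vwa5a, AW551984 and Tmem225 in cluster 2. Zfp560 and Zfp202, zinc finger genes as well, flanked the clusters on their higher-coordinate side at 9.04 kb and 4.22 kb. Muc16, a mucin gene at 79.9 kb, and Panx3, a pannexin channel gene at 42.1 kb, flanked them on the other side. The median member model was 948 bp long and the longest, Olfr872, 23752 bp. Of the 130 models, 79 were under 1000 bp with a length that is a multiple of 3, as a coding exon without untranslated parts has, so the annotated end of many members is not a known transcription start.

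Promoters of 109 members were found in the RefSeq promoter table of GRCm38.p6, which gives 250 bases before and 50 after an annotated start. In 61.8% of these member promoters the bases after the start open on ATG, against 8.13% of all promoters, so there too the start is often that of the coding sequence. The sequences of 3 neighbouring genes and 3 members are printed as examples. The first 3 belong to the zinc finger genes at and inside the clusters, picked because each had a gene-end peak in all 4 lists. Their contrast in peaks with the members was thus set by this choice. The remaining coding genes inside the clusters had no gene-end peak in any list, and their promoters were not printed. The other 3 belong to the nearest members among those found in the promoter table whose annotated start is not an ATG. None of these 3 had a peak over its promoter. Each shows the 250 bases before the start, 5′ to 3′, with CG pairs in capitals.
Zfp317 (chr9:19621841-19622090, plus strand): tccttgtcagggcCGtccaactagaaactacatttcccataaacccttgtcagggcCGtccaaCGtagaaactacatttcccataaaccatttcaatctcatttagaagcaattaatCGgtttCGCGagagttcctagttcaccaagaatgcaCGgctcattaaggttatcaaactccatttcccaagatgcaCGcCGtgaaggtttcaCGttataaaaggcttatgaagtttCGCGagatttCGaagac
Zfp560 (chr9:20385159-20385408, minus strand): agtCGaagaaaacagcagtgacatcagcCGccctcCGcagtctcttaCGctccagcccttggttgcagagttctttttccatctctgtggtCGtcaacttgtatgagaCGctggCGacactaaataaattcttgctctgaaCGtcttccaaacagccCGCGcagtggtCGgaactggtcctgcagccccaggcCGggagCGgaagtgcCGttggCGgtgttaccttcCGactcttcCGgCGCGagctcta
Zfp202 (chr9:40192066-40192315, plus strand): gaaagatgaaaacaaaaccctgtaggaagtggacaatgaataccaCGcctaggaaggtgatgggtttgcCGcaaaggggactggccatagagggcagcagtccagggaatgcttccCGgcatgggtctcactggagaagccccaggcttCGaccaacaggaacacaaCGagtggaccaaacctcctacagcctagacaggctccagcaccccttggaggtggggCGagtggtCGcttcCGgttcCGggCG
Olfr855 (chr9:19584261-19584510, plus strand): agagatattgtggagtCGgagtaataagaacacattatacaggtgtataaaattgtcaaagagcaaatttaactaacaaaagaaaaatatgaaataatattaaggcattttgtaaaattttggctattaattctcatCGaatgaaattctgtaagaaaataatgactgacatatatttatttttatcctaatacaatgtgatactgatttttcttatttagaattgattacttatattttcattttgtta
Olfr39 (chr9:20282101-20282350, plus strand): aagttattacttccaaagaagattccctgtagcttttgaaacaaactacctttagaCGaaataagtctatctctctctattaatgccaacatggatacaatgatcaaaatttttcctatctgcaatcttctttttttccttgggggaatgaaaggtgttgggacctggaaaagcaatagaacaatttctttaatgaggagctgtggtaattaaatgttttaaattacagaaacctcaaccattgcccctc
Olfr986 (chr9:40186829-40187078, plus strand): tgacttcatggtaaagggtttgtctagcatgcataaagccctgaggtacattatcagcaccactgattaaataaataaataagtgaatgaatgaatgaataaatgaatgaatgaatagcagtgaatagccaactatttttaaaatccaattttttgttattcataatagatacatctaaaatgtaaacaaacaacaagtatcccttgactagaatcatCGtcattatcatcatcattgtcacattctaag

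These stretches held 13 CG pairs for Zfp317, 19 for Zfp560 and 10 for Zfp202, against 2 for Olfr855, 1 for Olfr39 and 1 for Olfr986. Their GC content was 43.2%, 56.4% and 58.0% for the zinc finger genes and 23.2%, 34.8% and 30.0% for the receptors. As the zinc finger genes were picked by their peaks, these values are examples and no test of CG pairs against peaks. Over the full 300 bases, the 110 member promoters had a median of 1 CG pair (range 0 to 8) and 34.0% GC, and 35.5% of them had no CG pair. The 838 promoters of Olfr genes on other chromosomes had the same median of 1 CG pair and 35.3% GC. The 20315 promoters of genes outside the family had a median of 14 CG pairs and 57.0% GC.

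**Figure D1:**
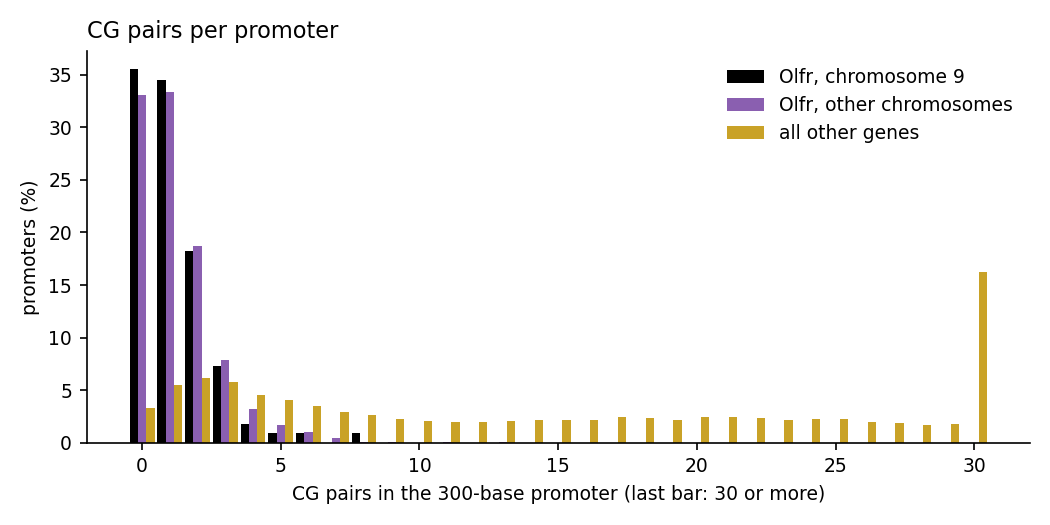
Share of promoters (vertical axis, %) by the number of CG pairs in 300 bases (horizontal axis) for Olfr genes of chromosome 9, Olfr genes of other chromosomes and all other genes. Members lie between 0 and 8 CG pairs, with a median of 1, while other genes spread over the whole axis with a median of 14.

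No member promoter overlapped a peak in any list (0 of 110 in each of the 4). Of the 838 promoters of Olfr genes on other chromosomes, 2 overlapped a peak in WT basal (0.239%) and 1 in WT KCl (0.119%). In cKO basal 1 did (0.119%) and in cKO KCl 2 did (0.239%). Among promoters of genes outside the family, 40.8% overlapped a WT basal peak, 35.8% a WT KCl peak, and 34.1% and 41.1% a peak of cKO basal and cKO KCl. Promoters of other genes with few CG pairs were seldom covered as well. Of the 5946 non-receptor promoters with 0 to 5 CG pairs, 3.11% overlapped a peak in WT basal, 1.55% in WT KCl, and 1.80% and 2.83% in cKO basal and cKO KCl, and 108 of the 110 member promoters fell in that class. Of the 7151 with over 20 CG pairs, 73.3%, 67.7%, 64.7% and 74.7% did. A count of 0 of 110 cannot tell a share of 0 from a low share, and members were not tested against the class with 0 to 5 CG pairs. The part of base composition in the low number of member peaks was not tested.

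Short motifs were searched in the 300 bases on both strands, as a description of letters and not of bound sites. Median GC was 34.0% in member promoters and 56.3% in all promoters, and the part of base composition in the motif shares was not tested. TAATTA, the core of homeodomain sites, was found in 25.5% of member promoters, in 17.7% of those of other Olfr genes and in 4.53% of all promoters. TATAAA was found in 44.5% of member promoters, in 40.6% of those of other Olfr genes and in 12.6% of all. CCCNNGGG, the core of the site of the olfactory Ebf factors, was found in 1.82% of member promoters, in 3.22% of those of other Olfr genes and in 15.6% of all. TGANTCA, a looser form of the AP-1 site, was found in 11.8% of member promoters, in 13.7% of those of other Olfr genes and in 6.99% of all. Its middle base could be A or T as well as the C or G of AP-1 sites. The share with C or G was not counted, so these are not shares of AP-1 sites. The GC box CCGCCC was found in 0 of 110 member promoters, in 1.19% of those of other Olfr genes and in 46.2% of all. A run of 75 bases, the read length, was shared with the promoter of another gene for 4 of 109 members, Olfr875, Olfr876, Olfr924 and Olfr926, against 7.07% of other Olfr genes and 15.8% of genes outside the family. Both strands were searched, and promoters of neighbouring genes that cover the same bases count as shared. Such overlaps were not taken out, so these shares do not measure repeated sequence. Copies elsewhere in the genome were not searched, and how the authors treated reads with several matches is not given in the sources used here.

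Gene ends were the first measure, and a single member had a gene-end peak. Olfr981 (gene ID 258283, chromosome 9, 40022395 to 40023327, cluster 2) held a WT basal peak at 40022928 to 40023245, inside its gene body and 82 bp from its upper end. The peak had a fold of 3.01 at the 62.3rd percentile of its list and a summit of 30 fragments. Olfr981 had no peak in the other lists, where the nearest lay 87.6 kb away in WT KCl and 169 kb away in both cKO lists. The next nearest member to the limit was Olfr901, with a WT basal peak 2.37 kb from an end, and no other member had a peak between these distances.

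As a share, 1 of 130 members had a gene-end peak in WT basal (0.769%, exact 95% Clopper-Pearson interval 0.0195 to 4.21), against 46.5% of all protein-coding genes. In the other 3 lists 0 of 130 had one, which allows a share of up to 2.31% by the limit of 3 counts (exact Clopper-Pearson upper bound 2.80%, as plotted), against 39.8% of all genes in WT KCl, and 38.8% and 45.2% in cKO basal and cKO KCl. These intervals and limits cover counting error only, and neighbouring members are not independent of each other. Of 980 Olfr genes on other chromosomes, 27 had a gene-end peak in WT basal (2.76%, 1.82 to 3.98), 7 in WT KCl and in cKO basal, and 9 in cKO KCl. Of 355 vomeronasal receptor genes (Vmn1r and Vmn2r), another family of chemoreceptors, 2, 2, 3 and 2 had one. The zinc finger and ribosomal families stood far higher, with 40.3 to 54.0% for the 176 Zfp genes of chromosomes 7, 13 and 17 and 67.1 to 78.1% for the 73 genes of cytosolic ribosomal proteins. The 1071 other genes of chromosome 9 reached 41.8 to 55.1%.

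**Figure D2:**
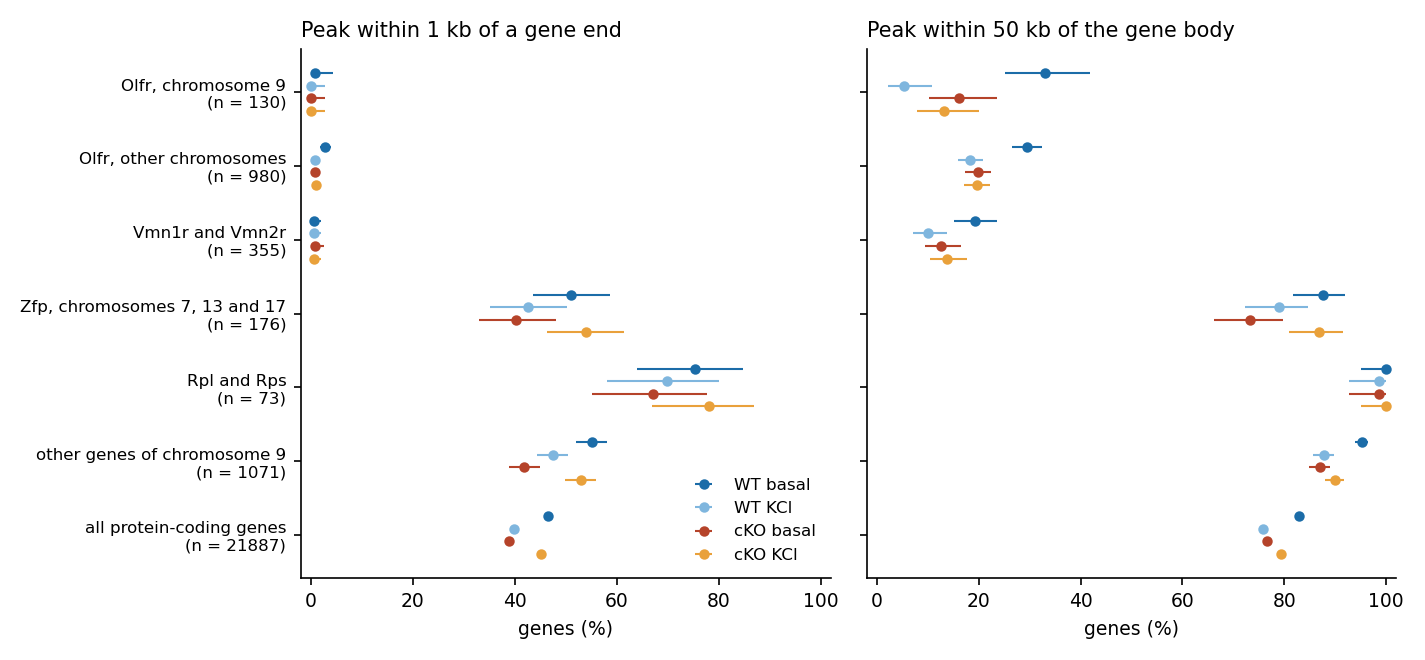
Share of genes (horizontal axes, %) with a peak within 1 kb of a gene end (left) and within 50 kb of the gene body (right), by gene family and list. Points are the values of 1 list each and bars the exact 95% Clopper-Pearson intervals. Members lie at 0 to 0.769% on the left, beside the other chemoreceptor families, and at 5.38 to 33.1% on the right.

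The wider measure counted peaks within 50 kb of the gene body. In WT basal 43 of 130 members had one (33.1%, interval 25.1 to 41.9), against 82.9% of all genes. In WT KCl 7 did (5.38%, 2.19 to 10.8), against 75.9%. In cKO basal 21 did (16.2%, 10.3 to 23.6), against 76.6%, and in cKO KCl 17 did (13.1%, 7.81 to 20.1), against 79.4%. Members were thus below the share of all genes in each list. Olfr genes of other chromosomes stood at 29.5%, 18.3%, 19.8% and 19.6% in the same order. The intervals of the members and of these genes did not overlap in WT KCl alone (upper bound 10.8 against lower bound 15.9). These intervals treat neighbouring members as separate, and the 7 members in WT KCl rest on 5 distinct peaks, so this is no test of a difference. With each list held to its 20229 peaks of highest −log10 p, 13, 7, 21 and 11 members had a peak within 50 kb, so the WT basal list then held fewer than cKO basal.

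Since windows of neighbouring members overlap, distinct peaks were counted as well. They numbered 20 in WT basal, 5 in WT KCl, and 9 and 8 in cKO basal and cKO KCl, or 0.0587%, 0.0247%, 0.0439% and 0.0311% of their lists. The intervals of these shares overlap (0.0359 to 0.0907 for WT basal and 0.00803 to 0.0577 for WT KCl). Within the clusters themselves the peak density was 3.45 per Mb in WT basal (exact 95% Poisson interval 1.89 to 5.79), 0.493 in WT KCl (0.0597 to 1.78), and 1.48 and 1.48 in cKO basal and cKO KCl (0.543 to 3.22 for both). On the rest of chromosome 9, leaving out the unassembled first 3 Mb, it was 16.3, 9.82, 9.84 and 12.1 per Mb, which is 4.73, 19.9, 6.65 and 8.21 times as much.

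Distance to the nearest peak gave the same order of lists. The median over members was 83.7 kb in WT basal, 446 kb in WT KCl, and 188 kb and 244 kb in cKO basal and cKO KCl. For Olfr genes of other chromosomes the medians were 116, 175, 139 and 181 kb, and for the other genes of chromosome 9 they were 0 kb in each list. The longest stretch of a cluster with no peak in any of the 4 lists was 755 kb in cluster 2 (38781928 to 39536557), with 25 members from Olfr922 to Olfr957. In cluster 1 it was 477 kb (19743638 to 20220533), with 11 members from Olfr58 to Olfr871. In WT KCl alone 2400 kb of cluster 2 had no peak.

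**Figure D3:**
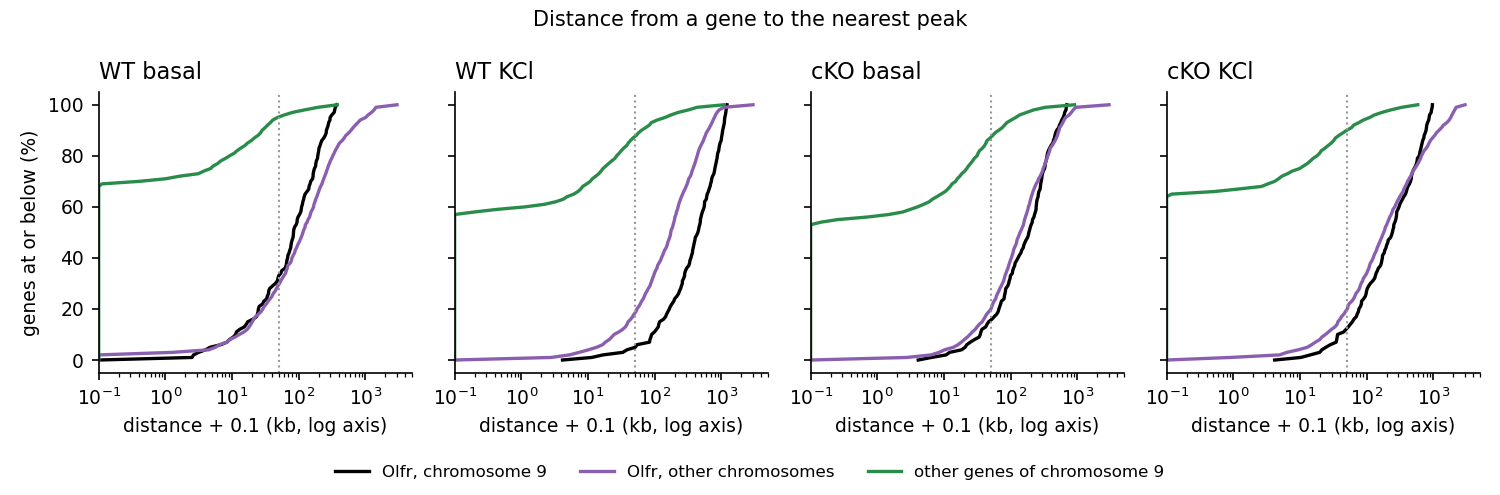
Cumulative share of genes (vertical axis, %) by distance from the gene body to the nearest peak plus 0.1 kb (horizontal log axis), 1 panel per list. The dotted line marks 50 kb. Members (black) lie near Olfr genes of other chromosomes in WT basal and farther from peaks in WT KCl, with medians of 83.7 and 446 kb.

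Merging the 4 lists gave 26 regions within 50 kb of a member. Of these, 20 (76.9%) had a peak in 1 list only and 3 (11.5%) in all 4, near the 71.4% and 11.6% of all 62023 regions of the series. None of the 3 lay at a receptor gene. They were the gene ends of Zfp317 (19621855 to 19622394), Zfp560 (20384969 to 20385326) and Zfp202 (40192109 to 40193077). Each lay within 50 kb of 1 member, Olfr855 at 36.4 kb, Olfr18 at 48.9 kb and Olfr986 at 4.01 kb, and these 3 are the members with a region in all 4 lists.

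The Zfp317 end had folds of 5.44 in WT basal, 4.98 in WT KCl, and 4.20 and 6.63 in cKO basal and cKO KCl. The Zfp560 end had folds of 5.15, 3.36, 4.97 and 5.34, and that of Zfp202, taking the stronger of 2 peaks in the first 3 lists, had 4.86, 3.55, 4.49 and 3.25 in the same order. Zfp560 was thus lowest in WT KCl, and Zfp202 was lower in both KCl lists than in both basal lists. The fourth region at an end of another gene was that of Panx3, with a fold of 2.54 in WT basal alone. The coding genes inside cluster 2, Vwa5a, AW551984 and Tmem225, had no gene-end peak in any list.

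**Figure D4:**
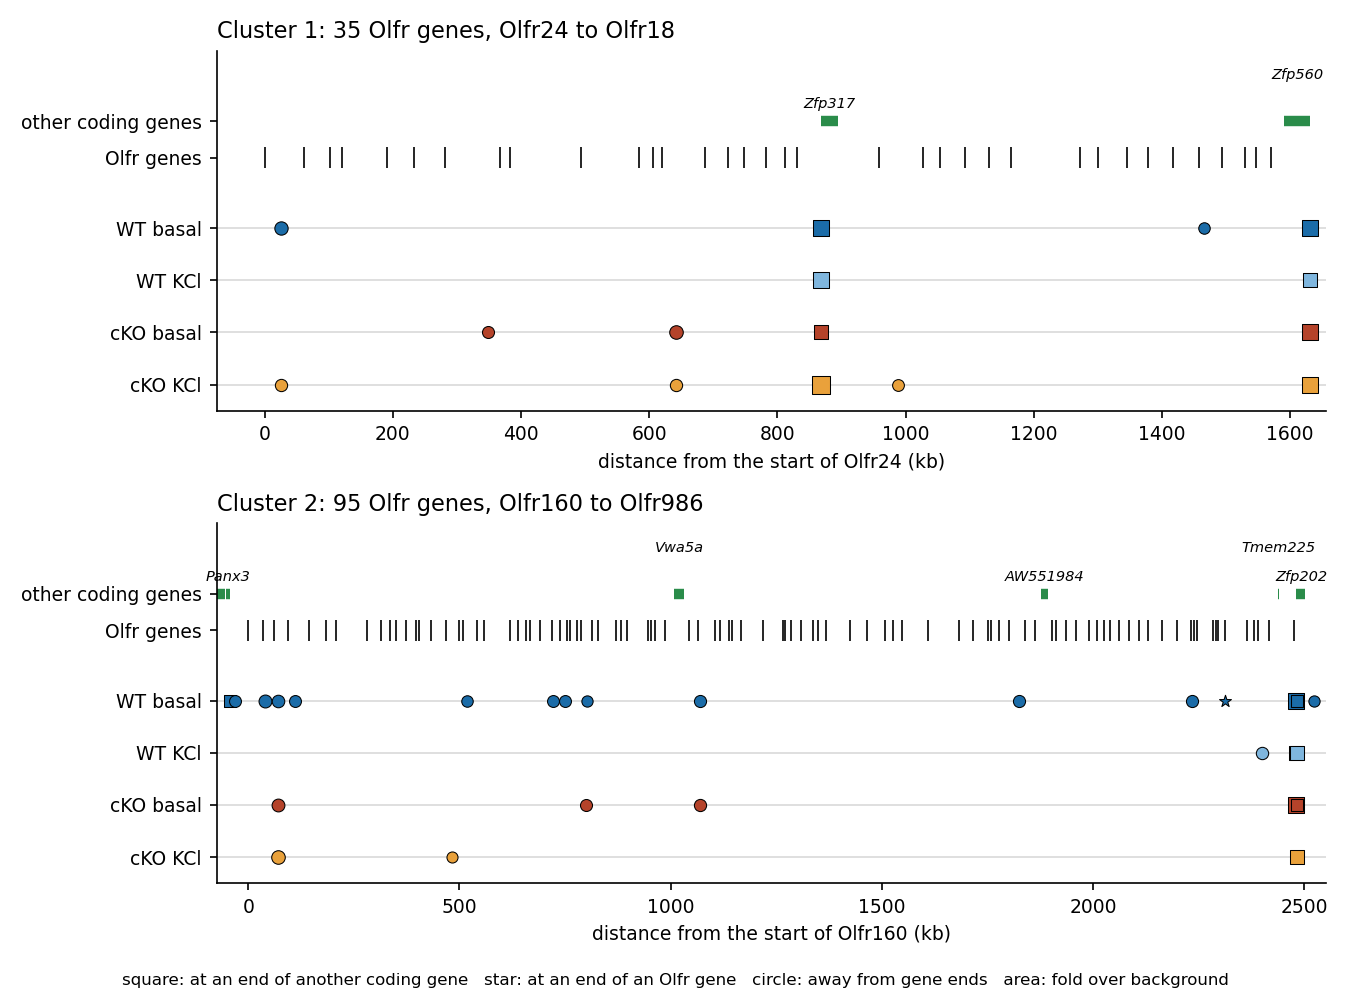
Map of the 2 clusters. Black ticks are Olfr genes, green bars other coding genes, and symbols the peaks of each list within 50 kb of a member, by distance from the first member (kb), with the symbol's area proportional to the fold. The ends of Zfp317, Zfp560 and Zfp202 carry a square in every row, while circles, away from gene ends, seldom line up between rows.

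The other 22 regions were the Olfr981 site and 21 sites away from gene ends. All 21 were intergenic, with 0 inside an annotated gene of any type, and lay 2.37 to 46.0 kb from the nearest member (median 11.7 kb), and for 4 of them the nearest annotated gene was an Olfr pseudogene. With the ends of other genes set aside, 19 of these 22 had a peak in 1 list only and 0 in all 4. The shares of all regions above include gene ends and are no measure for these 22. Over all 26 regions, 13 (50.0%) were in WT basal alone, 3 (11.5%) in cKO basal alone, 3 in cKO KCl alone and 1 (3.85%) in WT KCl alone. Of all regions of the series 29.2%, 12.7%, 17% and 12.5% were, in the same order, and WT basal is the longest list.

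The 26 peaks of these sites had folds of 2.35 to 3.53 (median 2.82) and summits of 21 to 36 fragments, and their median rank was the 39.6th percentile of their own list. Below their list's median fold lay 8 of 15 in WT basal, 1 of 1 in WT KCl, and 3 of 5 and 4 of 5 in cKO basal and cKO KCl. The 16 peaks at ends of other genes had folds of 2.54 to 6.63 and a median rank at the 91.9th percentile. The lowest ranked of the 26, 12.5 kb from Olfr891 in cKO KCl, stood at the 3.32nd percentile with 21 fragments, and the highest ranked, 20.6 kb from Olfr847 in cKO basal, at the 80.0th with 36.

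**Figure D5:**
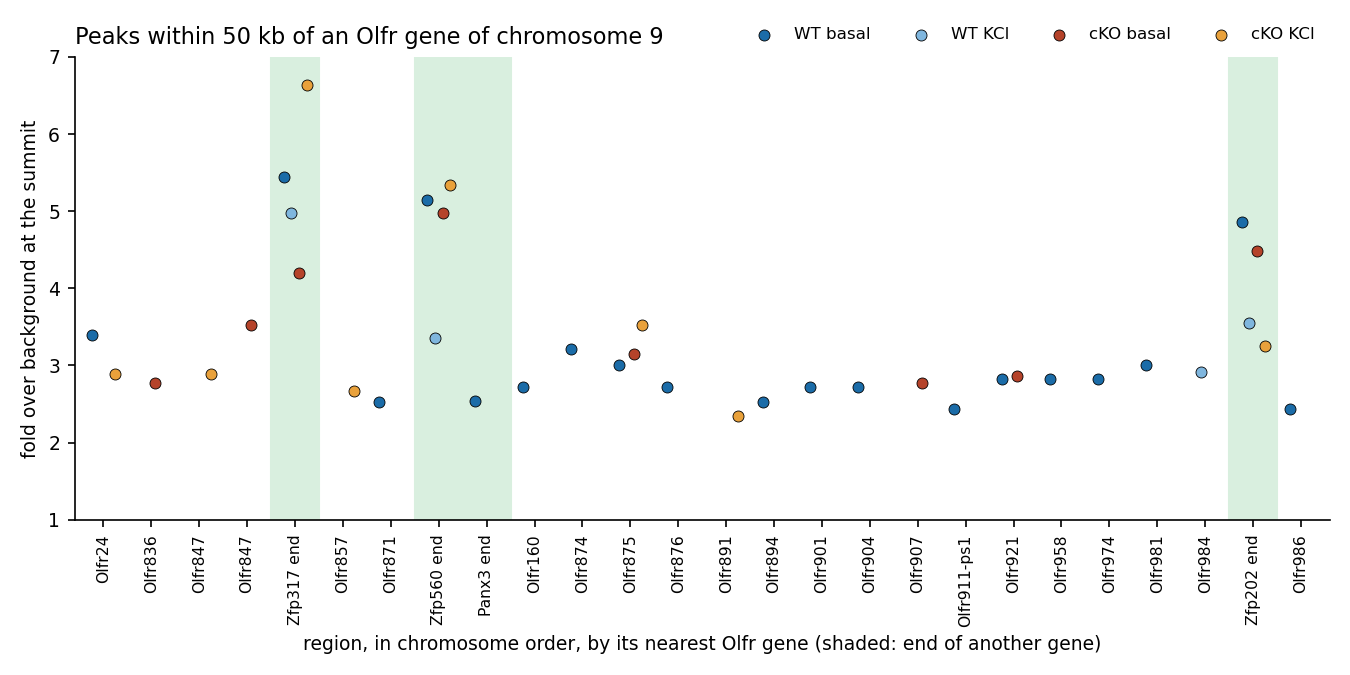
Fold over background at the summit (vertical axis) of the 26 regions in chromosome order, with 1 point for each list that had a peak (the strongest where a region held several). Shaded regions are ends of other coding genes. The ends of Zfp317, Zfp560 and Zfp202 have 4 points each, from 3.25 to 6.63, and every other region stays at or below 3.53.

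Among the 22, 3 sites recurred between lists. The site 9.18 kb from Olfr875 (37782817 to 37783132) had folds of 3.01 in WT basal, 3.15 in cKO basal and 3.53 in cKO KCl, and was missing from WT KCl. The site 5.24 kb from Olfr921 (38781598 to 38781928) had 2.82 in WT basal and 2.86 in cKO basal, and thus appeared in both basal lists only. The site 23.9 kb from Olfr24 (18779521 to 18779874) had 3.40 in WT basal and 2.89 in cKO KCl. None of the 22 recurred between the WT KCl list and another. The single WT KCl site, 9.40 kb from Olfr984 (40110888 to 40111087), had a fold of 2.92 and 26 fragments, and accounts for 4 of the 7 members with a WT KCl peak within 50 kb.

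Most members had nothing near them. In all 4 lists together 75 of 130 (57.7%) had no region within 50 kb, 35 had 1 region, 14 had 2, 4 had 3 and 2 had 4. For Olfr genes of other chromosomes 56.7% had none in any list, and for all protein-coding genes 12.9%. Of the 16 members within 50 kb of another coding gene, 10 had a region in some list, and of the 114 farther away, 45 did. By list, 50.0% of the nearer members and 30.7% of the others had one in WT basal, 31.2% and 1.75% in WT KCl, 31.2% and 14.0% in cKO basal, then 18.8% and 12.3% in cKO KCl.

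The 2 members with 4 regions were Olfr904 and Olfr905, neighbours in cluster 2. Each had 3 regions in WT basal, 1 in cKO basal and 0 in both KCl lists, and since their windows overlap these are the same sites. Olfr906 and Olfr907 next to them had 2 in WT basal, 1 in cKO basal and 0 in both KCl lists. Olfr160, the first member of cluster 2, had 3 in WT basal and 0 in the other lists, and Olfr875 had 3 in WT basal, 1 in cKO basal, 1 in cKO KCl and 0 in WT KCl.

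Olfr874 had 2 in WT basal, 0 in WT KCl and 1 in each cKO list. Olfr846, Olfr847 and Olfr849 in cluster 1 had 0 in both WT lists and 1 in each cKO list. These cKO peaks did not overlap: that of cKO KCl (19396253 to 19396462) ended 22 bases before that of cKO basal (19396485 to 19396751) began, so they count as 2 regions. At the limit of 50 kb, Olfr870 (49.0 kb, WT basal) and Olfr890 (49.3 kb, cKO KCl) lay just inside, while the peaks next beyond it lay 51.1 kb from Olfr982 (WT basal) and 53.2 kb from Olfr986 (cKO KCl).

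The genotypes were compared by the number of regions within 50 kb of each member, first without KCl. Members with fewer regions in cKO basal were 35 of 130 (26.9%), against 57.3% of all genes, and those with more were 5 (3.85%), against 11.4%. Of the Olfr genes of other chromosomes 21.9% had fewer and 7.96% more. The remaining 90 members had equal numbers, 82 of them with 0 in both lists (63.1% of members, against 15.2% of all genes). Genes with 0 in both lists can have neither fewer nor more. The shares of members and of all genes here and below are therefore not on the same footing. The largest difference was from 3 regions to 0, at Olfr160. At equal list lengths of 20229 peaks, 9 members had fewer and 15 had more, so the direction turned. That trim kept peaks down to a −log10 p of 6.74 in WT basal and of 4.41 in cKO basal, which are unlike cutoffs. With −log10 q of at least 2 in each list, 35 had fewer and 5 had more, so the direction depends on how the lists are cut.

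In depolarised neurons the direction was the other way. From WT KCl to cKO KCl, 14 members had more regions (10.8%, against 42.0% of all genes) and 4 had fewer (3.08%, against 20.2%). In both lists 109 members had 0 (83.8%, against 17.4% of all genes). Of the Olfr genes of other chromosomes 13.3% had more and 9.49% fewer. The 4 with fewer, Olfr982 to Olfr985, are those near the WT KCl site by Olfr984. At equal list lengths 8 had more and 4 fewer.

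KCl in wild-type neurons went with fewer regions at 41 members (31.5%, against 57.2% of all genes) and more at 4 (3.08%, against 11.3%). In both WT lists 83 members had 0 (63.8%, against 15.3% of all genes). Of the Olfr genes of other chromosomes 23.5% had fewer and 7.45% more. At equal list lengths 10 members had fewer and 4 more. In cKO neurons 12 members had fewer after KCl (9.23%, against 20.1% of all genes) and 8 had more (6.15%, against 42.2%). Olfr genes of other chromosomes were near balance as well, with 11.1% fewer and 10.7% more. At equal list lengths 12 had fewer and 2 more. The 4 comparisons share lists with each other, and 101 members had 0 in both cKO lists (77.7%, against 17.1% of all genes).

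The list with the highest count of members with a region within 50 kb was not the same in both clusters. In cluster 2, 36 of 95 members had a region within 50 kb in WT basal, 5 in WT KCl, and 14 and 8 in cKO basal and cKO KCl. In cluster 1, these numbers were 7, 2, 7 and 9 of 35, so the WT basal list held no more than the cKO lists there. Peaks inside cluster 1 numbered 3 in WT basal, 1 in WT KCl, and 3 and 4 in cKO basal and cKO KCl, so its member counts rest on few sites. Inside cluster 2 they numbered 11, 1, 3 and 2 in the same order. The difference between the clusters was not tested.

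Genes that act with the receptors were read at their gene ends from a list of 26. Of these, 12 had a gene-end peak in WT basal, 14 in WT KCl, and 12 and 15 in cKO basal and cKO KCl, 9 had one in all 4 lists and 9 in none. Of all protein-coding genes 46.5%, 39.8%, 38.8% and 45.2% had one in these lists, 29.0% in all 4 and 43.1% in none. A peak near an end of one of these genes can also lie at an end of its neighbour. Of the signalling genes, Gnal, the olfactory G protein subunit that the brain also uses, had one in all 4 (folds 3.13, 3.06, 3.37 and 2.82), as did the channel subunit gene Cnga4 (6.34, 4.90, 4.36 and 6.43) and Ric8b, a chaperone of Gnal (6.10, 3.40, 3.37 and 5.43). The cyclase gene Adcy3 had one in cKO KCl alone (2.86), and the channel gene Cnga2, the G protein subunit gene Gng13 and Omp, the olfactory marker protein, had none.

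Of the receptor trafficking genes, Reep1 had a gene-end peak in all 4 lists (2.78 to 3.68), and Rtp1 and Rtp2, whose products carry receptors to the surface, had none. Among the chromatin genes, the demethylase gene Kdm1a (3.23 to 3.42), the lamin B receptor gene Lbr (4.19 to 5.01) and the remodeller gene Bptf (3.68 to 4.81) had one in all 4 lists. Of the factors that bind receptor enhancers, Lhx2 had one in both basal lists (2.90 and 2.66) and neither KCl list, and Ebf1 had one in both KCl lists (3.02 each) and neither basal list. Ebf2, Ebf3 and Ldb1 had none, Ebf4 had one in all lists but WT KCl, and Atf5, a stress factor of sensory neurons, in all but WT basal.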

How the data were processed

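The authors deposited 1 narrowPeak list of nucleosome-free ATAC-seq peaks per condition, made from 2 libraries of 50000 cells each with 7 to 9 PCR cycles and paired 75-bp reads, per the labels' protocols. Bowtie2, MACS2 and the build GRCm38 (mm10) were used, per the submitters' processing notes. Not given in the sources used here were versions, duplicate removal, the Tn5 shift and how libraries were pooled. Each deposited peak has a fold (ratio) of pileup over local background at its summit, a −log10 p, a −log10 q and a score equal to 10 times the latter. These values are the authors' own and served to describe and rank peaks within a list. The lowest deposited −log10 q was 1.31 to 1.51 per list.

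Only peaks of chromosomes 1 to 19, X and Y entered, which left out 5 mitochondrial peaks per list. Gene models came from RefSeq's GRCm38.p6 table, and the files use the same build. A peak counted for a gene within 1 kb of either annotated end, or within 50 kb of the gene body. Lists were merged into regions at an overlap of 1 bp. Summit fragments were solved from the fold, taken as (pileup + 1)/(background + 1), and the Poisson p-value, within 0.001 in −log10 p for 100% of peaks of each list. The labels give 60 M reads per library, and how many remained after filtering or fell in peaks is not given in the sources used here. Intervals are exact at 95% (scipy 1.17.1), and 3 counts set the limit of a count of 0. Window calls were tested on simulated data. No columns of unmatched samples were present (0).

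The members, gene lists and tests were chosen with earlier results of these data known. Named members were those with a gene-end peak, the 10 others with most regions (ties taken in order of symbol), the first and last of each cluster and those at the limits. Other members are named as the nearest to a region, chosen after values were seen.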

Additional observations from a re-analysis of the deposited data

Results flagged for a closer look

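The difference between the genotypes had opposite directions in the basal and the KCl condition, which drew attention to both measures within 50 kb. Members with a peak within 50 kb numbered 43 in WT basal and 21 in cKO basal, but 7 in WT KCl and 17 in cKO KCl. Distinct peaks within 50 kb numbered 20 and 9, but 5 and 8. With 1 list per condition the difference between these differences was not tested. The whole lists moved in the same directions, from 34061 to 20484 peaks in the basal condition and from 20229 to 25690 with KCl. At equal list lengths members with a peak numbered 13 and 21 without KCl, and 7 and 11 with it, and distinct peaks 7 and 9, and 5 and 6. With −log10 q of at least 3 in each list, members numbered 33 and 21 without KCl, and 7 and 11 with it. Distinct peaks were then 15 and 9, and 5 and 6.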

How the results depend on the processing

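Of 137 values under 9 alternative settings, 97 stayed within 1.5 times the reported count and 40 did not. Gene-end counts of members stayed at 1 in WT basal and 0 in the other lists with windows of 500 bp or 2 kb, with −log10 q of at least 2 or 3, by summit and at equal list lengths. Sharing at 50% of the shorter peak moved no count of regions past that limit. With a window of 10 kb in place of 50 kb, members with a peak numbered 12 in WT basal, 2 in WT KCl, and 3 and 2 in cKO basal and cKO KCl, and distinct peaks 11, 3, 4 and 2. Members with more and fewer regions were then 0 and 9 from WT basal to cKO basal, 1 and 1 from WT KCl to cKO KCl, 1 and 11 from WT basal to WT KCl, and 0 and 1 from cKO basal to cKO KCl. With 100 kb, members with a peak numbered 73, 15, 44 and 35, distinct WT KCl peaks 8, and members with more and fewer regions 9 and 57, 24 and 5, 1 and 64, and 17 and 23. At equal list lengths members with a peak numbered 13 in WT basal and 11 in cKO KCl, distinct WT basal peaks 7, all regions 13 and regions in 1 list 8. Members with more and fewer regions were then 15 and 9 from WT basal to cKO basal, 8 and 4 from WT KCl to cKO KCl, 4 and 10 from WT basal to WT KCl, and 2 and 12 from cKO basal to cKO KCl. With −log10 q of at least 3, 11 members had a cKO KCl peak, and with at least 2, 4 members had more regions in cKO KCl than in cKO basal. Fewer peaks or smaller windows hold fewer sites by construction. No paired analysis was possible because each condition has 1 list, and for the same reason leaving out a library was not possible. The 26 peaks near members that lie at no end of another gene rest on 21 to 36 fragments at the summit, and a site with no peak in a list may still be open there below the calling threshold.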

Other observations

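Olfr genes of other chromosomes varied widely in their peaks within 50 kb. On the 11 other chromosomes with at least 20 Olfr genes, the share with a peak ran from 8.01 to 63.0% in WT basal (median 37.3%), from 0 to 37.5% in WT KCl (20.5%), from 5.56 to 50.0% in cKO basal (19.1%) and from 5.23 to 51.9% in cKO KCl (30.8%). Chromosome 9 stood at 33.1%, 5.38%, 16.2% and 13.1%. The 287 Olfr genes of chromosome 2 had the lowest share in WT basal, at 8.01%, and 9.76% in WT KCl, so that the WT KCl share was not below the WT basal share there. Of the 27 Olfr genes of chromosome 1, 63.0% had a peak within 50 kb in WT basal, 0% in WT KCl, and 37.0% and 51.9% in cKO basal and cKO KCl. Since members of a cluster share peaks, these shares rest on few sites each.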
